A study of Mus musculus with 2 samples.

Results

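The unfolded protein response and the integrated stress response were followed here through 10 genes, Hspa5, Xbp1, Manf, Herpud1, Atf4, Asns, Sesn2, Ddit3, Trib3 and Chac1, chosen by name out of 18366 genes listed in either library. All 10 were listed in both libraries. The cells came from gliomas of C57BL/6 mice, induced by transferring the PDGFB gene in utero into the embryonic telencephalon, and were collected around 40 days after birth. Sorting for GFP enriched the tumour cells, and 2 tumours were combined for each library before droplet capture, which gave 2 libraries, called pool 1 and pool 2, that form 1 group with no control. The tumours of a pool cannot be told apart in the files, and PDGFB transfer was common to both pools. Of 3843 and 3650 barcodes, 3506 cells of pool 1 and 3278 of pool 2 passed limits of 500 genes or more and no more than 15% mitochondrial UMIs (unique molecular identifiers, each counting 1 captured RNA molecule). These cells are the ones described below. Their medians were 7440 UMIs in pool 1 and 11272 in pool 2, with mitochondrial shares of 2.97% and 1.44%, and 4 barcode sequences occurred in both files.

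Secreted and membrane proteins fold in the endoplasmic reticulum (ER). When unfolded protein accumulates there, the sensors IRE1, ATF6 and PERK switch on a programme of chaperones, folding enzymes and degradation factors, known as the unfolded protein response. PERK also belongs to a family of kinases that phosphorylate the initiation factor eIF2 on ER stress, amino acid shortage, double-stranded RNA or haem shortage, which lowers general translation while allowing ATF4 protein to be made; this second programme is the integrated stress response. Because XBP1 is activated by splicing of its mRNA and ATF4 mainly by translation, 3′ UMI counts of Xbp1 and Atf4 do not report how active either factor is.

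Hspa5 encodes BiP, the main ER chaperone of the HSP70 family. It lies on chromosome 2 at 34771970 to 34777547 on the plus strand (GRCm38, as all positions here) and is known as an ATF6 and XBP1 target. Xbp1, on chromosome 11 at 5520659 to 5525893, encodes the transcription factor that IRE1 activates. Manf, on chromosome 9 at 106838312 to 106891979, encodes a secreted ER-resident trophic factor induced by ER stress, and Herpud1, on chromosome 8 at 94386438 to 94395377, a membrane protein that takes part in ER-associated degradation. Atf4, on chromosome 15 at 80255184 to 80257541, encodes the central transcription factor of the integrated stress response. Its known targets among these genes are Asns, the enzyme that makes asparagine (chromosome 6, 7675169 to 7693254), Sesn2, an inhibitor of mTORC1 signalling (chromosome 4, 132492032 to 132510501), Ddit3, the transcription factor CHOP (chromosome 10, 127290829 to 127293753), Trib3, a pseudokinase (chromosome 2, 152337422 to 152344032), and Chac1, which degrades glutathione (chromosome 2, 119351229 to 119354381).

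Promoters are shown for the 4 genes in which a searched element was present, because these elements are the textbook links between the members and the 2 programmes. Sequences are from RefSeq (GRCm38.p6), which held a promoter for 9 of the 10 genes (Manf had no entry); 250 bases before each annotated start were searched on both strands. The elements were the ER stress element ERSE (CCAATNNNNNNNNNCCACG), its variant ERSE-II (ATTGG and CCACG separated by 1 base) and the ATF4-C/EBP composite site (TGATGNAA). ERSE occurred in 0.113% of 32851 promoters, ERSE-II in 0.0304% and TGATGNAA in 3.45%. Capitals mark the matched letters, and each line runs 5′ to 3′ on the gene's strand. Distances are from the RefSeq start. The GENCODE spans given above begin further upstream for Hspa5 and Asns, so the windows of both lie inside those spans.
Hspa5 (chr2:34772020-34772048, plus strand, ERSE, 70 to 42 bases before the start): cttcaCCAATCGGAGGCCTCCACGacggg
Herpud1 (chr8:94386297-94386407, plus strand, ATF4-C/EBP site in reverse orientation followed by ERSE-II, 132 to 22 bases before the start): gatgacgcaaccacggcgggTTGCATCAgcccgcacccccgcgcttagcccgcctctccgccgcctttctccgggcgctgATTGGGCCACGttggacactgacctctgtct
Asns (chr6:7693214-7693243, minus strand, ATF4-C/EBP site, 34 to 5 bases before the start): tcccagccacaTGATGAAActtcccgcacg
Chac1 (chr2:119351029-119351076, plus strand, ATF4-C/EBP site in reverse orientation, 213 to 166 bases before the start): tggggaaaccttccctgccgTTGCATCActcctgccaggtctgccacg
Hspa5 was the 1 member with ERSE, Herpud1 the 1 with ERSE-II and also with a composite site, and Asns and Chac1 each held 1 composite site. A match of letters describes the window and is not a measured binding site, and promoters of Xbp1, Atf4, Sesn2, Ddit3 and Trib3 held none of these letters in the bases searched.

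Levels are given as CPM, the share of a gene among all UMIs of the cells counted on the usual CPM scale, with exact Poisson 95% intervals that cover counting error only. Hspa5 stood at 761.0 CPM (751.7 to 770.4) in pool 1 and 359.6 CPM (353.8 to 365.5) in pool 2, a ratio of 2.12. Xbp1 stood at 109.7 CPM in pool 1 and 68.6 CPM in pool 2, and Manf at 326.2 and 217.9 CPM, ratios of 1.6 and 1.5. These genes of the ER programme were therefore higher in pool 1, and Hspa5, Xbp1 and Manf were each higher there in 11 of 11 clusters described below. Herpud1 differed less, with 30.6 CPM in pool 1 and 23.8 CPM in pool 2, a ratio of 1.28, and was also higher in pool 1 in 11 of 11 clusters. Atf4 went the other way, with 75.3 CPM (72.4 to 78.3) in pool 1 and 96.3 CPM (93.3 to 99.4) in pool 2, and was lower in pool 1 in all 11 clusters. Among the ATF4 targets, Asns had 37.8 and 38.4 CPM in pool 1 and pool 2, Sesn2 24.3 and 18.4 CPM, and Ddit3 24.1 and 16.2 CPM. The ratios of Sesn2 and Ddit3 were 1.32 and 1.48, with higher levels in pool 1 in 8 and 10 of 11 clusters. Sesn2 and Ddit3 were therefore higher in pool 1 along with Hspa5, Xbp1, Manf and Herpud1.

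Of the 8 members with a mean of at least 20 CPM, 2 (Hspa5 and Xbp1) were at least 1.5 times higher in pool 1; Manf lay just under that mark. Over 7434 genes of at least that mean, 1.86% were at least 1.5 times higher in pool 1, with a median ratio of 1.01. The other ER chaperones and folding enzymes had a median ratio of 1.27 over 17 genes, 3 of them at least 1.5 times higher in pool 1, among them Sdf2l1 (87.9 and 55.5 CPM in pool 1 and pool 2), a partner of BiP and its cochaperones, and Pdia4 (109.8 and 71.7 CPM), a disulfide isomerase. Genes of amino acid synthesis and transport had a median ratio of 0.734 over 12 genes and tRNA synthetases 0.822 over 11. Low ratios were not limited to these lists, as immediate early genes had a median of 0.777 over 9. The excess in pool 1 was not limited to ER genes: the core cycling genes had a median ratio of 1.44 over 10 genes, 3 of them at least 1.5 times higher. Pool 1 also had the lower depth and the higher mitochondrial share given above, and with 1 library on each side no test of the difference between pools was possible; tumours and libraries cannot be told apart here.

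Most cells held UMIs of Hspa5, and few held any of Trib3 or Chac1. With every cell thinned to 2000 UMIs (389 and 404 shallower cells left out), Hspa5 was found in 66.3% of cells in pool 1 and 45.7% in pool 2, against 84.9% and 79.7% before thinning. Manf was found in 37.2% and 32.8% of thinned cells in pool 1 and pool 2, Xbp1 in 18.3% and 13.7%, Atf4 in 13.6% and 17.0%, Asns in 5.23% and 6.75%, and Herpud1 in 6.38% and 5.08%. Sesn2 (4.2% and 3.79%) and Ddit3 (4.2% and 2.99%) were rarer. Trib3 gave 35 UMIs in 29 cells of pool 1 and 42 UMIs in 37 cells of pool 2, a level of 1.05 and 1.04 CPM. Chac1 gave 19 UMIs in 16 cells of pool 1 and 61 UMIs in 45 cells of pool 2, 0.568 CPM (0.342 to 0.888) and 1.51 CPM (1.15 to 1.94). No cell type in these tumours is known to lack these genes, so a share due to free RNA could not be measured.

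To ask how the genes vary among the tumour cells, UMIs were divided at random into a training set, used to cluster cells without the 10 genes and their pathway lists, and a held-out set, which was summed per pool and cluster and tested. Of 13 clusters, the 11 with at least 20 cells in each pool were tested. Markers of oligodendrocyte precursor cells, the class that PDGFB-driven gliomas resemble, summed to between 5276 and 13118 CPM in each of the 11 clusters and both pools. Cluster 10 was led by Enpp6, Bmp4 and Bfsp2 and was committed oligodendrocyte precursor-like. In clusters 6, 8 and 9 most thinned cells were cycling, from 59.6% to 99.0%. Cluster 0 had a median of 2923.5 UMIs in pool 1 and 2281.0 in pool 2, with Malat1, a nuclear noncoding RNA, at 107363.8 and 119982.0 CPM. Cluster 5 had medians of 1217.0 and 1382.5 UMIs and microglial markers at 1040.2 and 1315.9 CPM, against at most 32.0 CPM in the other tested clusters.

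**Figure D1:**
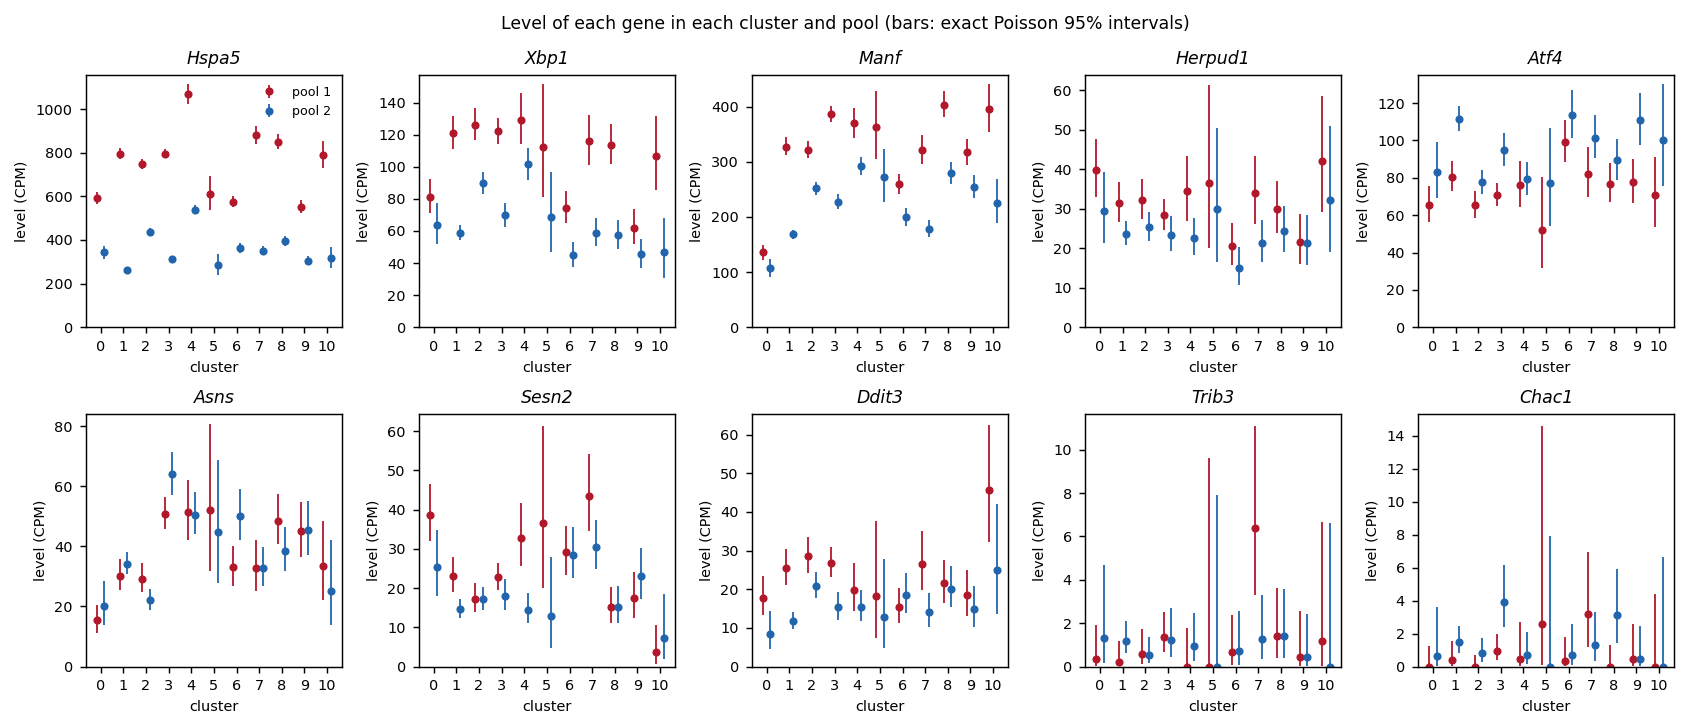
Level of each of the 10 genes (CPM, vertical axes starting at 0) in clusters 0 to 10 (horizontal axes), with pool 1 in red left of pool 2 in blue and bars for exact Poisson 95% intervals. Hspa5 reaches its highest level in cluster 4 of both pools, Manf and Asns their lowest in cluster 0 of both pools, and Sesn2 its lowest in cluster 10 of both pools.

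Levels of 8 members were high enough to be fitted, and all 8 passed the test over clusters (edgeR quasi-likelihood F test with the pool as a block, Benjamini-Hochberg adjusted over 11094 genes). Adjusted p was 9.13e-08 for Manf, 2.05e-06 for Asns, 0.000137 for Xbp1, 0.00129 for Hspa5, 0.00317 for Atf4, 0.0123 for Sesn2, 0.0316 for Ddit3 and 0.0429 for Herpud1. Passing was common: 68.6% of all genes tested did so. Trib3 and Chac1 were too low to be fitted. Without the pool block, 2 of the 8 passed. The spread behind these p-values is that between the 2 pools, so they do not extend to other tumours.

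Hspa5 was highest in cluster 4, whose leading genes were Sox9, Rlbp1 and Vim, genes of radial glia and astrocytes. The astrocyte markers of cluster 4 summed to 906.0 CPM in each pool, below clusters 0, 1 and 2 (1081.2 to 1465.6 CPM). The level of Hspa5 in cluster 4 was 1069.2 CPM (1025.1 to 1114.8) in pool 1 and 539.6 CPM (517.4 to 562.5) in pool 2, against medians over clusters of 791.5 and 342.7 CPM. In both pools the interval of cluster 4 lay above that of every other cluster tested. Against the mean of the other clusters the log2 fold change was 0.61 ± 0.12 (SE; adjusted p = 0.00342, edgeR quasi-likelihood test), where 1.33% of genes were called higher. The chaperone Calr (log2 fold change 0.58) and the disulfide isomerases Pdia6 (0.59) and Pdia3 (0.50) were the other 3 called higher of 18 ER chaperone and folding genes. None of the 16 amino acid genes and 11 tRNA synthetases fitted was called in cluster 4, with 1 and 0 at an unadjusted p under 0.05. Xbp1 also had its highest level in cluster 4 in both pools, 129.4 and 101.5 CPM, but its interval overlapped those of other clusters and it did not pass (log2 fold change 0.41).

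Manf and Asns had the smallest p over clusters. In cluster 0, Manf had 135.8 and 106.6 CPM in pools 1 and 2, against cluster medians of 327.6 and 227.0 CPM, a log2 fold change of -1.50 ± 0.15 (adjusted p = 6.76e-10, edgeR quasi-likelihood test). Asns had 15.4 CPM (11.3 to 20.6) and 20.2 CPM (13.7 to 28.6) there, a log2 fold change of -1.59 ± 0.26 (adjusted p = 4.8e-06, same test). Ddit3 (-0.70), Xbp1 (-0.58) and Hspa5 (-0.42) were also lower, so that 5 of 8 members were called lower in cluster 0, where 26.9% of all genes were. Of the ER chaperone and folding list 14 of 18 were lower and 1 was higher. Cluster 0 is the Malat1-rich cluster of low depth, with mitochondrial shares of 4.94% and 4.22%, and the part of these measures in the result was not tested. Sesn2 was not called there, at 38.7 and 25.4 CPM, above its cluster medians of 23.2 and 17.1 CPM.

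The largest positive difference of Asns was in cluster 3, which was led by Gja1, Aqp4, S100a10, Lgals1 and, in pool 2, haemoglobin genes. Asns had 50.9 CPM in pool 1 and 64.1 CPM in pool 2 there, a log2 fold change of 0.82 ± 0.15 (adjusted p = 0.000123, edgeR quasi-likelihood test). In pool 1, Asns was about as high in clusters 5 (52.3 CPM) and 4 (51.4 CPM). Manf was called higher in cluster 3 too, at 0.33 (386.2 and 227.0 CPM), though not without the low-depth clusters. Its pool 2 level there equalled the median over clusters, and in pool 1 clusters 8 (403.6 CPM) and 10 (395.7 CPM) were higher. Of all genes, 18% were called higher in cluster 3. Among other genes of amino acid supply, Psph (0.69) and Phgdh (0.49) of serine synthesis, Aldh18a1 (0.51) of proline synthesis and the transporter subunit Slc3a2 (0.41) were higher, as were the tRNA synthetase genes Sars (0.45), Yars (0.42), Tars (0.41) and Nars (0.29). The counts were 4 of 16 amino acid genes and 4 of 11 synthetases, none lower. In cluster 2, led by Rph3a, Kcnmb4 and C1ql1, Asns was lower (29.3 and 22.1 CPM, log2 fold change -0.62) and Xbp1 higher (126.1 and 89.8 CPM, 0.43), against backgrounds of 4.75% lower and 10.3% higher. Neither passed when cycling clusters were left out.

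**Figure D2:**
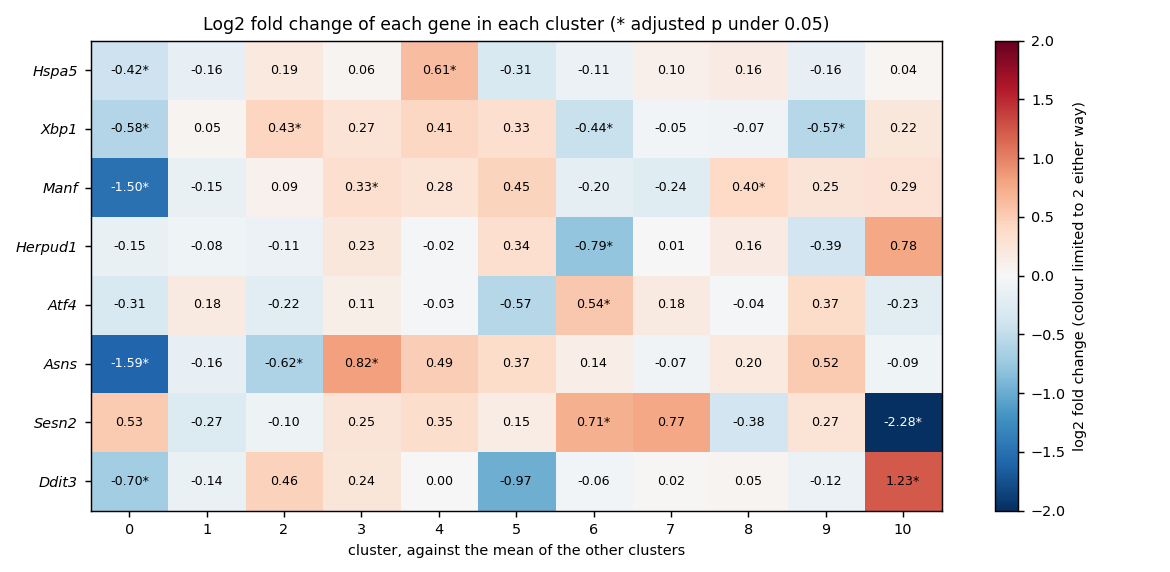
Log2 fold change of 8 genes (rows) in each of 11 clusters against the equal-weight mean of the other clusters (columns), red for higher and blue for lower; an asterisk marks an adjusted p under 0.05. Of 88 tests, 8 were called higher and 10 lower, and all 18 had the same direction in both pools.

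Cluster 6 was led by mitotic genes such as Ccnb1 and Cdc20, and there the members split. Atf4 had 99.4 CPM in pool 1 and 113.6 CPM in pool 2, a log2 fold change of 0.54 (adjusted p = 0.00176, edgeR quasi-likelihood test). Sesn2, at 29.1 and 28.5 CPM, was higher by 0.71, though not with RLE size factors. The highest level of Sesn2 was in cluster 7 in both pools (43.6 and 30.6 CPM). Herpud1, at 20.6 and 15 CPM, was lower by a log2 fold change of -0.79, and Xbp1, at 74.6 and 44.9 CPM, by -0.44. Of all genes, 13.5% were called higher and 6.15% lower in cluster 6. In cluster 9, led by the histone gene Hist1h1b, Xbp1 was lower (62.0 and 45.4 CPM, log2 fold change -0.57; 4.44% of genes lower), and in cluster 8, led by the replication genes Ung and Mcm3, Manf was higher (403.6 and 279.0 CPM, 0.40; 6.04% of genes higher). The Manf call in cluster 8 was lost without the low-depth clusters.

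The committed precursor-like cells of cluster 10 differed most in Sesn2 and Ddit3. Sesn2 had 3 UMIs in pool 1 (3.6 CPM, 0.742 to 10.5) and 4 in pool 2 (7.17 CPM, 1.95 to 18.4), the lowest of the tested clusters in each pool. Its log2 fold change was -2.28 ± 0.73 (adjusted p = 0.0212, edgeR quasi-likelihood test), where 10.4% of genes were lower. Ddit3 was at its highest, with 45.6 CPM (32.2 to 62.5) in pool 1 and 25.1 CPM (13.7 to 42.1) in pool 2, a log2 fold change of 1.23 ± 0.35 (adjusted p = 0.00862), where 11.3% of genes were higher. The interval of Ddit3 in pool 2 overlapped that of every other tested cluster, and the pool 2 difference was 0.77, against 1.40 in pool 1. Herpud1, highest in cluster 10 in both pools at 42.0 and 32.3 CPM, did not pass (0.78). Of 18 ER chaperone and folding genes, 7 were higher and none lower. Cluster 10 held 61 and 36 cells, and its oligodendrocyte markers summed to 13480.0 and 14491.8 CPM.

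In clusters too small to test, values are descriptions. The oligodendrocyte-like cluster 11 (4 and 20 cells) had 6 and 21 Ddit3 UMIs, 64.9 CPM (23.8 to 141.3) and 75.7 CPM (46.9 to 115.7). The microglia-like cluster 12 (3 and 8 cells) had 123 and 68 Hspa5 UMIs, 3579.5 CPM (2974.9 to 4270.9) in pool 1 and 758.1 CPM (588.7 to 961.0) in pool 2. These intervals do not include the spread between cells.

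Across the 22 pool by cluster sums, centred within pool, likeness to other genes differed by member. Hspa5 was most like Pdia6 (Pearson r = 0.81), Pdia3 (0.75) and Calr (0.73), all ER folding genes, out of 7424 genes. Manf was most like Cct3 (0.94), a cytosolic chaperonin subunit, Hspe1 (0.92), a mitochondrial chaperonin, and Nop10 (0.92). Asns was most like Snhg6 (0.91), Slc25a5 (0.91) and Pgls (0.9). Sesn2 was most like Etv5 (0.87), Pdgfb (0.85) and Mark1 (0.85). Counts were made on the mouse reference, and whether the Pdgfb UMIs came from the transferred PDGFB gene was not tested. Xbp1 was most like Tspyl1 (0.84), Mcee (0.8) and Sh3bp5 (0.79), and Herpud1 like Syngr1 (0.81), Ctnna1 (0.8) and Bin1 (0.78). Atf4 was most like Med25 (0.85), Tmem144 (0.83) and Ppp2r5e (0.82), and Ddit3 like Atat1 (0.88), Snx16 (0.83) and Pdhb (0.81). Among members the highest values were 0.73 for Manf with Asns and 0.58 for both Hspa5 and Manf with Xbp1. The sums share libraries and depth, so these are descriptions.

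Whether the genes go together in the same cells was asked within clusters. For each member in turn, cells with at least 1 of its UMIs in the training set thinned to 2000 UMIs were compared with cells with none, and the other genes were measured in the held-out set, summed per pool, cluster and state with pool and cluster as the block (edgeR quasi-likelihood F test). Over 8 members used as index, 50 ordered pairs could be tested. Of these, 6 passed, and they were the 6 ordered pairs of Hspa5, Manf and Xbp1. None was called lower, and 14 had an unadjusted p under 0.05.

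**Figure D3:**
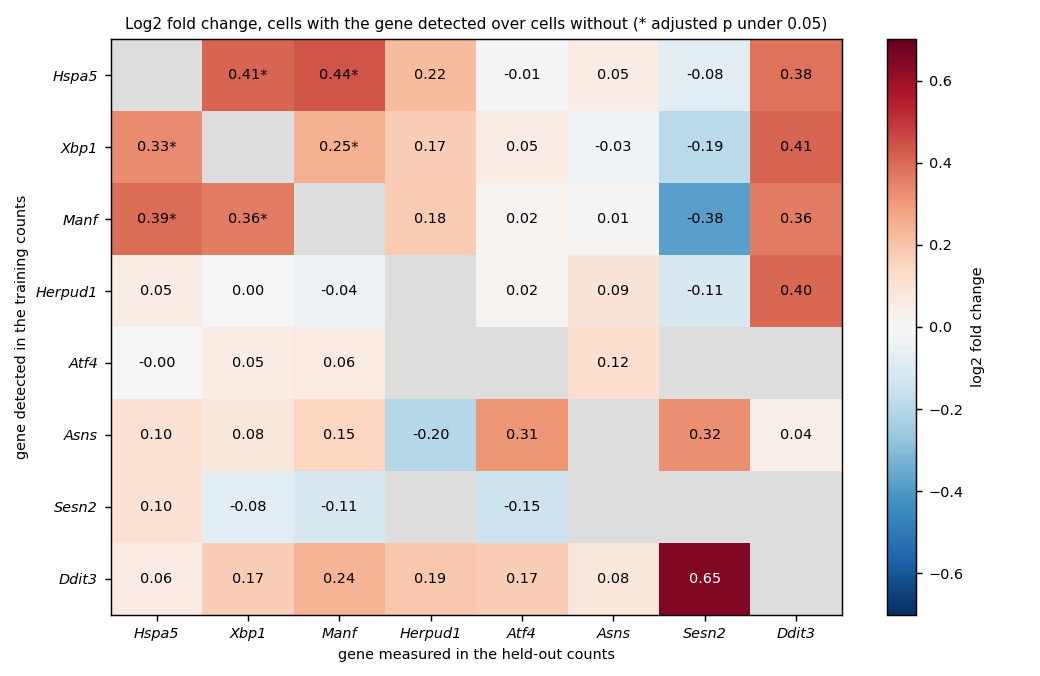
Log2 fold change of each gene (columns) in cells in which the index gene (rows) was detected, over cells in which it was not; an asterisk marks an adjusted p under 0.05 and grey marks the index itself or a gene too low to fit. The 6 marked squares are the pairs of Hspa5, Manf and Xbp1, from 0.25 to 0.44.

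Cells with Hspa5 detected (1659 in pool 1 and 1143 in pool 2) had Manf at 381.4 and 246.2 CPM in pools 1 and 2, against 237.3 and 201.0 CPM in cells without it (692 and 1275). The log2 fold change was 0.44 ± 0.05 (adjusted p = 1.91e-10, edgeR quasi-likelihood test), and Manf was higher in 20 of 22 pool and cluster pairs. Xbp1 was at 117.8 and 78.2 CPM in cells with Hspa5 detected and at 81.0 and 58.0 CPM in cells without (0.41 ± 0.07, adjusted p = 2.13e-05, higher in 17 of 22). Across all genes, 0.121% were called higher and 0.0364% lower, which is 10 and 3 genes of 8244. Of the 10 higher genes 7 were of the ER chaperone and folding list: Calr (log2 fold change 0.36), Pdia6 (0.39), Pdia3 (0.33), Hsp90b1 (0.28), Sdf2l1 (0.48), Pdia4 (0.39) and Dnajb11 (0.30). Rpn1, a subunit of the enzyme that attaches N-glycans, was the remaining one (0.24). The lower genes were Htt, Tulp3 and mt-Co1. Over the 17 list genes tested the median log2 fold change was 0.27, against -0.00 over all genes; 15 estimates were positive, and none was called lower. No gene of ER-associated degradation, of amino acid supply or of the tRNA synthetases was called (0 of 12, 14 and 11, with 2, 1 and 1 at an unadjusted p under 0.05).

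Cells with Manf detected (1004 and 822) gave the same pairs. Hspa5 was at 883.7 and 424.3 CPM in pools 1 and 2, against 661.4 and 313.2 CPM in cells without Manf (log2 fold change 0.39 ± 0.04, adjusted p = 9.62e-13, edgeR quasi-likelihood test, higher in 21 of 22 pairs). Xbp1 was at 123.8 and 77.3 CPM, against 92.6 and 61.7 CPM (0.36 ± 0.06, adjusted p = 0.000195). More genes were called, 0.428% higher and 0.318% lower, and 8 of 17 ER chaperone and folding genes were among the higher ones, with the smallest p for Pdia6 (0.37), Calr (0.29) and Pdia4 (0.34). By fold, the 5 genes furthest up were Slc25a20 (0.56), a mitochondrial carnitine carrier, Hspa5, Nipsnap3b (0.39), Sdf2l1 (0.38) and Creld2 (0.37). The 5 furthest down were Lyst (-0.49), Pde1c (-0.47), Serpina3n (-0.46), Dcaf17 (-0.44) and Rc3h1 (-0.32). Malat1 was also lower (-0.27), as was Mki67 (-0.25), the 1 called of 6 core cycling genes fitted, whose median was -0.13. Sesn2 was at 20.1 and 13.4 CPM in cells with Manf, against 25.1 and 18.9 CPM, and did not pass (-0.38, adjusted p = 0.152).

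With Xbp1 detected (440 and 329 cells), Hspa5 was at 956.8 and 433.0 CPM in pools 1 and 2, against 714.7 and 341.9 CPM in cells without Xbp1 (log2 fold change 0.33 ± 0.04, adjusted p = 1.99e-07, edgeR quasi-likelihood test). It was higher in 18 of 18 pool and cluster pairs. Manf was at 395.9 and 259.6 CPM, against 320.8 and 214.8 CPM (0.25 ± 0.05, adjusted p = 0.00829), the smallest of the 6 differences. Of all genes 0.0869% were higher, including Slc25a20 (1.1) and the cyclin gene Ccnd2 (0.20). Slc25a20 was higher in only 9 of 18 pairs, with differences of 0.70 in pool 1 and 1.62 in pool 2. Also higher were Calr (0.19), Pdia3 (0.21) and Pdia6 (0.22), the 3 called of 17 ER chaperone and folding genes, all 17 of which had a positive estimate. Of all genes 0.112% were lower, 9 genes in all, and these included 3 of the 4 core cycling genes fitted, Cenpf (-0.43), Top2a (-0.38) and Mki67 (-0.37). The median of the 4 was -0.37. The rest of the lower genes were Hmgb2 (-0.34), Cenpa (-0.54), Ube2c (-0.48), Smc4 (-0.36), Pbk (-0.47) and Anp32b (-0.28). All of these were called higher in the cycling cells described below.

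**Figure D4:**
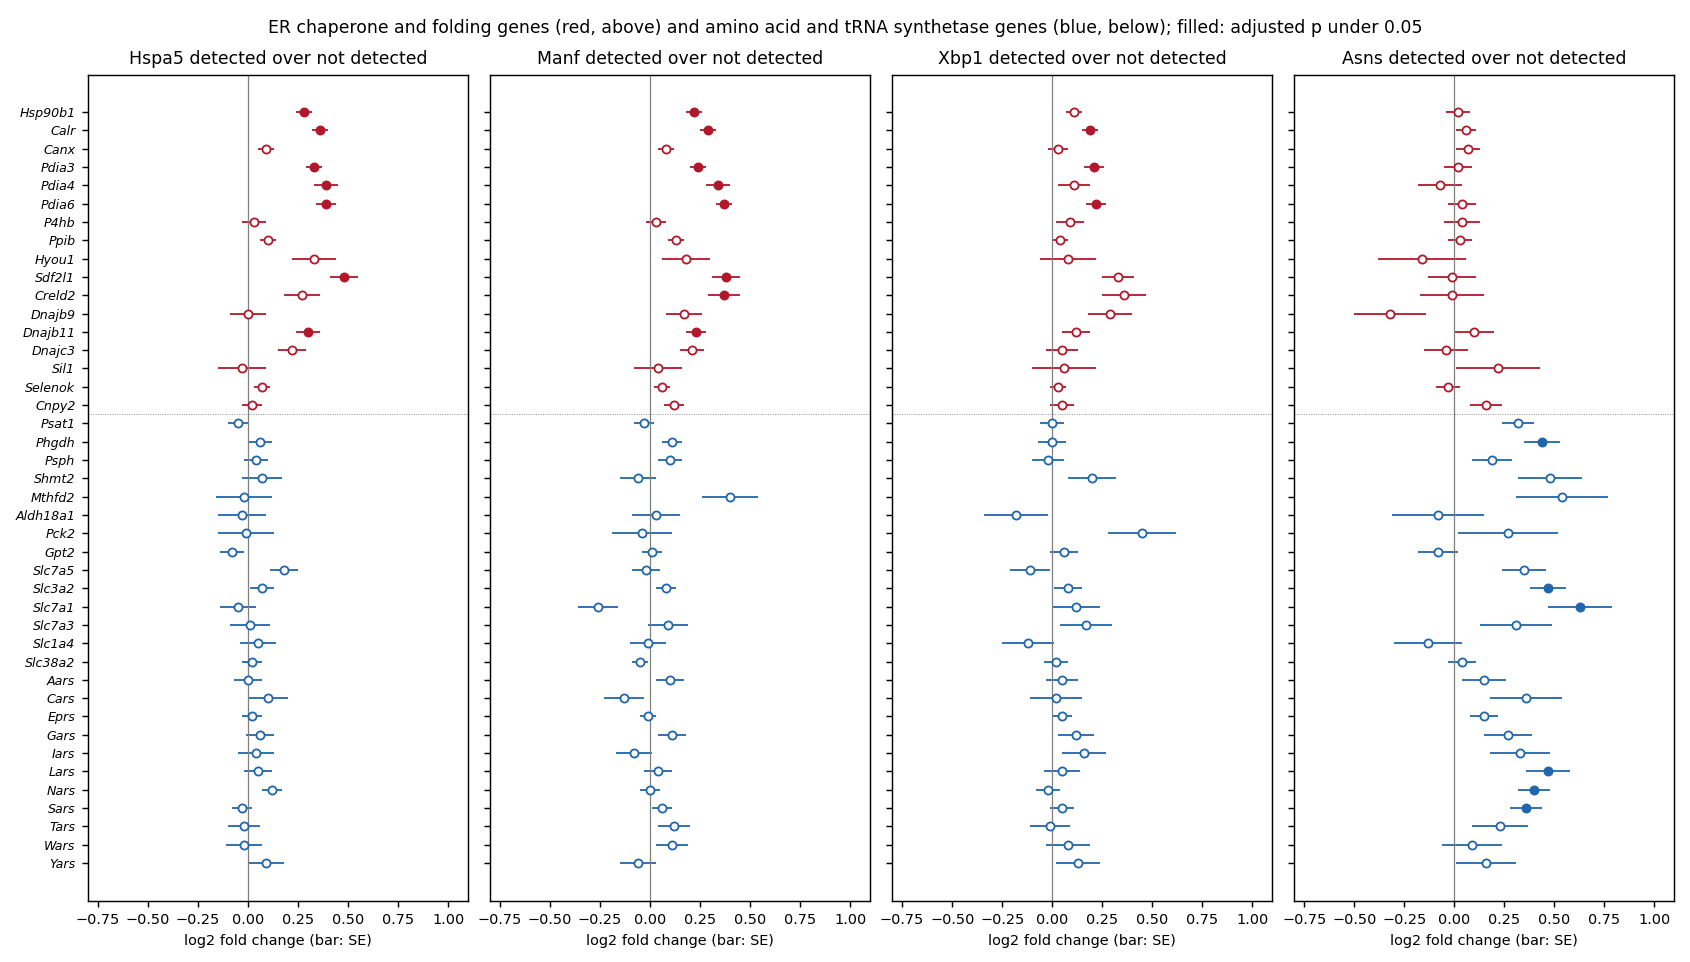
Log2 fold change with its SE (horizontal axes) of the ER chaperone and folding genes (red) and of the amino acid and tRNA synthetase genes (blue) in cells with Hspa5, Manf, Xbp1 or Asns detected, over cells without; filled points have an adjusted p under 0.05. Filled red points occur with Hspa5 (7), Manf (8) and Xbp1 (3), and filled blue points with Asns (6).

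The 6 differences kept their sign under every alternative run, but 5 of the 6 no longer passed in pool 2 alone, nor without the pool in the block; in pool 2 alone they ranged over 0.18 to 0.42, and the 1 that passed was Hspa5 in cells with Manf. Detected cells differed in quality as well: median mitochondrial shares were 2.53% and 1.14% in cells with Hspa5 against 2.77% and 1.24% without, and 2.28% and 1.05% in cells with Manf against 2.87% and 1.29% without. In cells with Xbp1 they were 2.47% and 1.13%, against 2.62% and 1.18% without. Malat1 was at 36607.1 and 35236.2 CPM in cells with Manf, against 45282.5 and 40616.3 CPM without, at 40682.9 and 37946.8 CPM with Hspa5, against 42797.1 and 39343.2 CPM, and at 39598.5 and 36475.2 CPM with Xbp1, against 41911.2 and 39028.5 CPM. Median UMIs were 11945.0 and 13830.5 with Manf, against 10461.0 and 13628.5, while with Hspa5 and with Xbp1 they were higher than without in pool 1 and lower in pool 2. In cycling cells, compared with non-cycling cells below, Hspa5, Xbp1 and Manf had estimates of -0.28, -0.28 and -0.21, none of them called. Summed over clusters, Manf was slightly higher in cycling cells, at 389.4 and 266.8 CPM, against 368.8 and 258.4 CPM. The part of depth, RNA quality and cycling state in the 6 differences was not tested.

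Asns went with other genes. Cells with Asns detected (157 and 173) were compared with 1899 and 2110 cells without, and no member was called. Called higher were 0.163% of genes, 13 of 7983. They included Eif4ebp1, a translation repressor and ATF4 target, at 32.2 and 61.7 CPM in pools 1 and 2, against 18.4 and 20.6 CPM (log2 fold change 1.14 ± 0.18, adjusted p = 2.47e-05, edgeR quasi-likelihood test). The transporter genes Slc7a1 (0.63) and Slc3a2 (0.47), Phgdh (0.44), and the synthetase genes Lars (0.47), Nars (0.40) and Sars (0.36) also rose. That is 3 of 14 amino acid genes, with a list median of 0.31, and 3 of 11 synthetases, with a median of 0.27. The cyclin-dependent kinase inhibitor Cdkn1a (0.47) and the initiation factor subunit Eif2s2 (0.33) were higher as well. None of 17 ER chaperone and folding genes was called, none had an unadjusted p under 0.05, and their median was 0.02. Lower were 0.125% of genes, among them Malat1 (-0.23) and mitochondrially encoded genes such as mt-Co1 (-0.27). Median mitochondrial shares were 2.19% and 0.966% in cells with Asns, against 2.49% and 1.18% without, and median UMIs 13205.0 and 14064.0, against 11808.0 and 13903.5; their part was not tested. Atf4 itself was at 106.2 and 104.9 CPM in cells with Asns, against 76.8 and 97.4 CPM, and did not pass (0.31, adjusted p = 0.432). Of the amino acid and synthetase genes, 1 passed in each pool alone and 0 passed with DESeq2.

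Detection of the other members marked little. With Herpud1 detected 0.0272% of genes were called, namely Dcaf17 higher and Gfod2 lower, and with Ddit3 detected 0.0136%, namely Gfod2 higher; with Atf4 or Sesn2 detected the share was 0%, while 303 of 5968 and 193 of 3594 genes had an unadjusted p under 0.05. Estimates for Ddit3 were positive in cells with Hspa5, Xbp1, Manf or Herpud1 (0.36 to 0.41), and none passed. Sesn2 was at 34.9 and 25.9 CPM in cells with Ddit3, against 22.6 and 15.6 CPM in cells without (0.65, adjusted p = 0.999). Herpud1 detected in the training set did not mark cells higher in held-out Herpud1 in pool 2 (16.8 CPM, against 23.3 CPM without), and Atf4 detection marked cells only modestly higher in Atf4 (86.7 and 110.9 CPM, against 76.5 and 94.8 CPM), while Asns (81.3 and 82.3 CPM, against 38.4 and 35.8 CPM), Sesn2 (53.4 and 41.2 CPM, against 23.0 and 14.9 CPM) and Ddit3 (44.6 and 32.4 CPM, against 26.0 and 15.2 CPM) did.

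Trib3 and Chac1 were confined to few cells, most with 1 UMI: 26 of 29 and 33 of 37 cells with Trib3, and 15 of 16 and 38 of 45 cells with Chac1, in pool 1 and pool 2. These cells were spread over 9 and 10 clusters for Trib3 and 7 and 10 for Chac1, counting the small ones. Trib3 was at its highest in pool 1 in cluster 7 (12 UMIs, 6.37 CPM, 3.29 to 11.1), a cluster led by Vgf, Hmga2 and interferon genes, but there it had 4 UMIs in pool 2 (1.29 CPM, 0.351 to 3.3). Chac1 had 19 UMIs in cluster 3 of pool 2 (3.93 CPM, 2.37 to 6.13) and 7 in pool 1 (0.961 CPM, 0.386 to 1.98).

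Cells with a Chac1 UMI held more Asns and Atf4 in both pools. Asns was at 110.7 CPM (74.7 to 158.1) in pool 1 and 101.1 CPM (82.0 to 123.3) in pool 2, against 37.2 and 36.9 CPM in cells without, and it was detected in 62.5% and 62.2% of cells, against 22.3% and 28.0%. Atf4 was at 132.9 and 136.5 CPM, against 74.9 and 95.3 CPM, and Sesn2 at 84.9 and 30.2 CPM, against 23.9 and 18.1 CPM. Herpud1 was also above the other cells, at 59.1 and 40.6 CPM against 30.3 and 23.4 CPM. Ddit3 was higher in pool 2 (52.1 CPM against 15.4), where 1 cell held 23 of its 50 UMIs; without that cell the level was 31.5 CPM. In pool 1, Ddit3 was at 29.5 CPM against 24.0, and without the cell of most UMIs at 15.5 CPM. Hspa5 was at 981.8 and 359.4 CPM, against 759.2 and 359.6 CPM, higher in pool 1 and level in pool 2. Manf was at 406.0 and 183.4 CPM, against 325.5 and 218.7 CPM, higher in pool 1 and lower in pool 2. Without the cell of most Asns UMIs, Asns was at 70.0 CPM in pool 1 and 89.1 CPM in pool 2.

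Cells with a Trib3 UMI had Asns at 97.3 and 56.4 CPM in pools 1 and 2, against 36.8 and 38.0 CPM; in pool 1 this rested largely on 1 cell with 21 UMIs, without which it was 61.0 CPM. Chac1 was at 9.36 and 18.4 CPM, from 5 and 16 UMIs, against 0.426 and 1.14 CPM; 1 cell held 4 of the 5 UMIs of pool 1, and without the cell of most Chac1 UMIs the levels were 1.92 and 11.7 CPM. Both genes were found together in 2 cells of pool 1 and 6 of pool 2. Cells with either gene were deeper, with medians of 14630.5 and 13967.0 UMIs with Chac1, against 7393.5 and 11183.0 without, and 16767.0 and 16152.0 with Trib3, against 7315.0 and 11185.0; the part of depth was not tested. The intervals cover counting error, not the spread between cells, so no test is given. In the thinned training set Trib3 was found in 6 and 5 cells and Chac1 in 0 and 8; the fit with Trib3 as index had 1 residual degree of freedom, called no member, and called 0.143% of genes; DESeq2 called Chac1 higher there.

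**Figure D5:**
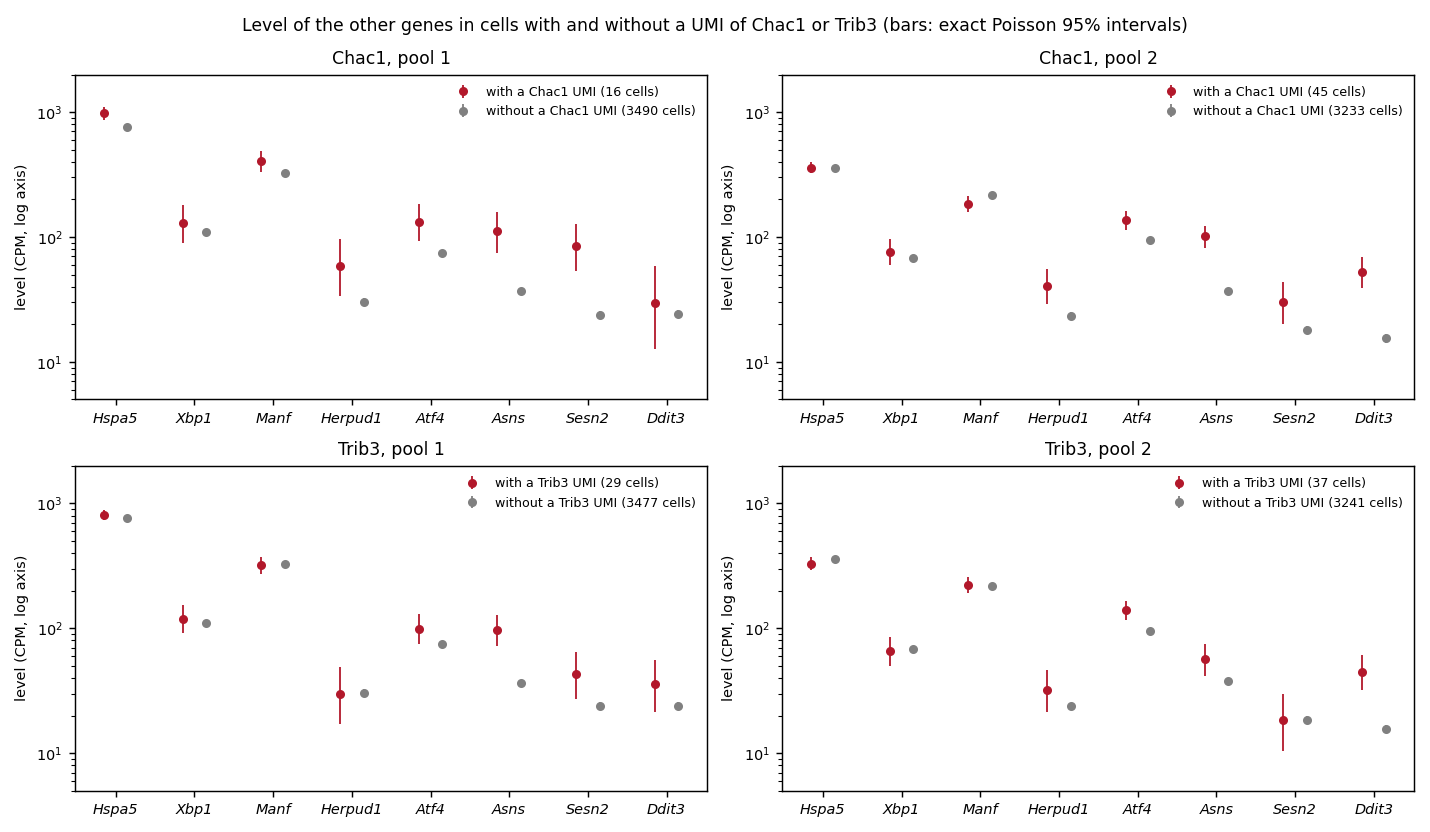
Level of 8 genes (CPM, log axis) in cells with a UMI of Chac1 (top) or Trib3 (bottom), red, and in cells without, grey, in pool 1 (left) and pool 2 (right), with exact Poisson 95% intervals. Asns and Atf4 lie above the grey points in all 4 panels, but the Atf4 interval with Trib3 in pool 1 includes the grey point (99.2 CPM, 74.3 to 129.8, against 74.9). Hspa5, Xbp1 and Manf lie near the grey points in pool 2 and with Trib3 in pool 1, apart from Manf with Chac1 in pool 2, which is lower.

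By cycling state, no member was called. Cycling cells (UMIs of at least 2 of 10 core cycling genes; 132 and 114 cells) were compared with non-cycling cells (964 and 1018) in the 4 clusters that held enough of both, and 6 members could be fitted. Hspa5 was at 779.7 and 370.1 CPM in cycling cells of pools 1 and 2, against 822.8 and 424.6 CPM in non-cycling cells, with a log2 fold change of -0.28 ± 0.09 (adjusted p = 0.0991, edgeR quasi-likelihood test). Called in either direction were 1.92% of genes. Among the 6 members Hspa5 alone had an unadjusted p under 0.05, none passed with DESeq2, and Hspa5 passed at -0.36 with no filter on low counts and at -0.35 with a limit of 10% mitochondrial UMIs.

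Mitochondrial share, a measure of cell quality that does not use the members, went with lower levels of Manf, Asns, Xbp1 and Hspa5. Within each pool and cluster, the third of cells with the highest share was compared with the third with the lowest. The high-share cells were also shallower, with medians of 5736.0 and 9710.0 UMIs in pools 1 and 2, against 8565.0 and 11572.0, and richer in Malat1, at 54465.2 and 49709.8 CPM, against 41261.8 and 34745.3 CPM; the part of these measures was not tested. Manf was at 280.3 and 199.6 CPM in the high-share cells of pools 1 and 2, against 354.0 and 234.1 CPM in the low-share cells (log2 fold change -0.28 ± 0.05, adjusted p = 2.42e-05, edgeR quasi-likelihood test), and was higher in 0 of 22 pool and cluster pairs. Asns (-0.38), Xbp1 (-0.24) and Hspa5 (-0.21) were lower too, which makes 4 of 6 members, where 16.9% of genes were lower. Atf4 (-0.06) and Herpud1 (0.01) did not pass. Of the 16 ER chaperone and folding genes fitted 12 were lower and none higher. In pool 1 alone 1 of the 4 members, Manf, passed, and in pool 2 alone 3 did. Xbp1 also did not pass with a limit of 10% mitochondrial UMIs or without cells of high doublet scores.

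The other gene lists were read over clusters in the same F test. Called were 8 of 13 stress sensors and eIF2 regulators, led by Eif2s1, Ppp1r15b, Eif2ak2 and Eif2b5, and 16 of 18 ER chaperone and folding genes, led by Cnpy2, Ppib, Calr and Selenok. Of ER-associated degradation genes 9 of 13 were called, led by Selenos, Os9, Sel1l and Edem3, and of ATF4 partners and stress transcription factors 7 of 7, led by Atf5, Vldlr, Ddit4 and Cebpg. Amino acid genes were called in 14 of 16 cases, led by Phgdh, Psat1, Mthfd2 and Psph, and tRNA synthetases in 6 of 11, led by Sars, Tars, Nars and Gars. Heat shock genes were called in 9 of 10 cases, immediate early genes in 8 of 10, hypoxia genes in 11 of 12 and core cycling genes in 10 of 10. The background of 68.6% given above applies to each.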

How the data were processed

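Deposited files held unnormalized counts of UMIs for every gene in every barcode, made with Cell Ranger 6.0.2 on GRCm38 (mm10) per the submitters' processing notes. How barcodes were filtered before deposit is not stated by the labels used here. Libraries were 3′ polyA libraries per the labels. The members and gene lists were chosen with earlier results of these data known. Pool 1 held 33894255 and pool 2 40909383 UMIs. Scrublet called 0 and 2 doublets against 2.8% and 2.62% expected, so doublets were not effectively removed. Counts were split at random (binomial, 0.5) into a training set (Leiden clustering at resolution 0.8 with scanpy 1.11.5, and states) and a held-out set (tests). Genes used for clustering entered no test between clusters. Sums per pool, cluster and state were fitted with edgeR 4.0.16 (quasi-likelihood F test, TMM, filterByExpr, Benjamini-Hochberg over all genes tested, threshold 0.05), tested on simulated data, with DESeq2 1.42.0 as an alternative. Sums within a pool share tumours and are not independent replicates. Positions are from the GENCODE annotation of GRCm38. Genes named were the members, list genes of smallest p over clusters or with Manf or Ddit3 detected, those of largest fold with Manf or Ddit3 detected (mean of at least 20 CPM), and the most alike genes; those named with Hspa5, Xbp1 or Asns detected, from single clusters, and Malat1 and Mki67 with Manf detected were chosen after their values were seen.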

Additional observations from a re-analysis of the deposited data

How the results depend on the processing

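Every single-gene result kept its sign: 907 settings stayed on the same side of the threshold or within the spread, 50 lost the call, 7 gained it and 4 moved. The cause of the changes below was not tested. The libraries form 1 group, so no pairing between groups exists, and the replicate block is the pool. Without the replicate block, calls fell to 2 of 8 members over clusters, 2 higher and 2 lower member and cluster tests (8 and 10 with it), 2 members by mitochondrial share (4), 1464 genes past the threshold by mitochondrial share (2212), 1 member pair (6), also 1 of the pairs of Hspa5, Manf and Xbp1, and 1, 0 and 0 ER chaperone and folding genes with Hspa5, Manf and Xbp1 detected (7, 8 and 3). All genes called then came to 2 with Hspa5, 0 with Manf, 0 with Xbp1 and 2 with Asns (13, 61, 16 and 23), and amino acid and synthetase genes with Asns to 0 (6).

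In single pools (without replicate 1 or 2), counts ranged from 33 to 68 genes by cycling state (144 with both pools), 1 to 3 members by mitochondrial share, 886 to 1180 genes past the threshold by mitochondrial share, 1 to 5 member pairs, 4 to 7, 2 to 6 and 0 to 1 ER chaperone and folding genes with Hspa5, Manf and Xbp1, and 4 to 18, 7 to 43, 4 to 5 and 9 to 16 genes with Hspa5, Manf, Xbp1 and Asns; amino acid and synthetase genes with Asns stayed at 1 to 1.

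Without low-depth clusters 5 tests were lower; without cycling clusters 5 were higher and 6 lower. The second seed gave 15 higher tests, 35, 21, 6 and 5 genes with Hspa5, Manf, Xbp1 and Asns, and 2 list genes with Asns. DESeq2 gave 89 genes by cycling state, 3 with Xbp1, 76 with Asns and 0 list genes with Asns. With no filter on low counts there were 1 member (Hspa5) and 259 genes by cycling state, 23, 86 and 56 genes with Hspa5, Xbp1 and Asns, 0 ER chaperone and folding genes with Xbp1 and 3 list genes with Asns. A limit of 10% mitochondrial UMIs gave 1 member and 329 genes by cycling state and 47, 18, 9 and 13 genes with Hspa5, Manf, Xbp1 and Asns. Without high doublet scores there were 1222 genes past the threshold by mitochondrial share and 30, 31 and 130 genes with Hspa5, Manf and Asns. Leiden resolution 0.4 gave 480 genes by cycling state, 36 with Manf and 37 with Xbp1. Thinning to 1000 UMIs gave 57 genes by cycling state, 39, 6 and 2 with Manf, Xbp1 and Asns, and 1 list gene with Asns. RLE size factors gave 93 genes with Manf, and the pool alone as the block 122, 434, 136 and 84 with Hspa5, Manf, Xbp1 and Asns. Depth limits Trib3 and Chac1: Chac1 was detected in 0 thinned cells of pool 1 and was not fitted as index, and the fit with Trib3 detected had 1 residual degree of freedom.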

Other observations

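The 337 barcodes of pool 1 and 372 of pool 2 that did not pass the cell limits also held member UMIs, with counting error only and no test. Manf was at 114.0 CPM (85.4 to 149.1) in the removed barcodes of pool 1 and 76.1 CPM (52.4 to 106.8) in those of pool 2, against 326.2 and 217.9 CPM in kept cells. Hspa5 was at 486.1 and 292.8 CPM in removed barcodes, against 761.0 and 359.6 CPM in kept cells, and Asns at 17.2 and 20.7 CPM, against 37.8 and 38.4 CPM. Sesn2 was at 28.0 CPM (14.9 to 47.8) and 27.7 CPM (14.3 to 48.3), with intervals that include the kept levels of 24.3 and 18.4 CPM. Of the removed barcodes, 178 and 157 were over the mitochondrial limit.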
